A study of Mus musculus with 32 samples.

Results

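The genes described here are 34 mouse genes of cholesterol and fatty acid synthesis and of their control by the sterol regulatory element-binding proteins (SREBPs). They were chosen by symbol and matched by gene identifier to the deposited read count table, where they are 34 of 39017 genes. All 34 were among the 18484 genes that passed the filter on low counts and were tested. By role they fall into 18 enzymes of sterol synthesis, 5 genes of SREBP control, 5 genes of sterol uptake, transfer and efflux, and 6 genes of fatty acid synthesis.

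Cells make cholesterol from acetyl-CoA by way of mevalonate, farnesyl diphosphate, squalene and lanosterol. The SREBPs are transcription factors held in the endoplasmic reticulum membrane: the escort protein SCAP carries them to the Golgi for cleavage when sterols are scarce, and the INSIG proteins hold SCAP back when sterols are plentiful. Srebf2 encodes the form best known for sterol synthesis and Srebf1 the form best known for fatty acid synthesis, while sterol excess acts through the liver X receptors (LXRs), which induce efflux transporters and the ubiquitin ligase Mylip.

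RNA-seq was made from mouse embryonic fibroblasts (MEFs), cells grown from mouse embryos, of 4 lines: wtATM (wild type), an ATM knock-out line, wtATMIN (a second wild type) and an ATMIN knock-out line. The kinase ATM acts in the response to DNA damage, and the protein ATMIN binds to it. Aphidicolin (APH) at 1 µM, an inhibitor of replicative DNA polymerases used to cause replication stress, or the solvent DMSO was given to every line for 4 h or for 24 h, which makes 16 groups of 2 samples. All groups were grown in the same serum-containing medium. Each knock-out is represented by 1 line, so that genotype and line cannot be told apart. Nothing in the labels tells if the samples of 1 group came from separate cultures: p-values then measure only the spread between these samples, which may be technical. In such bulk samples fewer cells of a type and less RNA per cell cannot be told apart.

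The 32 libraries held 9321329 to 21020662 reads counted to genes (median 16174639), and the reads of a member in a library ran from 0 (Abcg1) to 46553 (Scd2). At least 7 of 8 fibroblast markers exceeded 1 CPM (counts scaled to a library of 1000000 reads) in every line. Thy1 was the exception, at a mean of 233 CPM in the ATM knock-out line and at most 0.342 CPM in the other lines. Median Atmin was 5.02 CPM in the ATMIN knock-out line and 26.6 CPM in wtATMIN. Median Atm was 33.9 CPM in the ATM knock-out line and 52.2 CPM in wtATM, with overlapping ranges of 17.8 to 45.5 CPM and 43.1 to 65.1 CPM. Which exons the knock-out removes is not given in the sources used here, so this level does not check the label. The libraries of the ATM knock-out line with APH for 4 h stood apart: replicate 1 had 97900 CPM of the ribosomal-repeat gene Gm42418, and replicate 2 was the shallowest library, where 406 of the 1434 genes for olfactory or vomeronasal receptors had reads, against 17 to 95 outside this group. Without replicate 1 of that group the members called there were 25, and without replicate 2 they were 21, of 25 called with both. Gm42418 lay between 13780 and 97900 CPM in all 4 h libraries and between 252.3 and 5754 CPM in all 24 h libraries.

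Levels are CPM scaled by the TMM library factors, and differences are log2 fold changes with a standard error (SE). The SE is the absolute change over the square root of the F statistic of the test described next. It draws on the spread shared over all 32 samples, not on the 2 samples of a group alone. A gene was called changed where the adjusted p (Benjamini-Hochberg over the 18484 genes) of edgeR's quasi-likelihood test was under 0.05, and all adjusted p below come from that test. Per kilobase of gene length, the means over all libraries ranged from 219.7 CPM per kb for the fatty acid desaturase gene Scd2, 175.7 for Fdps and 100.5 for Acly down to 4.191 for Tm7sf2, 1.628 for Abca1 and 0.1038 for Abcg1. The other 28 members lay between 4.317 (Mylip) and 85.8 (Fasn) CPM per kb.

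Sterol synthesis genes were lower in APH than in DMSO in every line at 4 h. Of the 18, 16 fell in wtATM (2.76% of all tested genes fell), 15 in the ATM knock-out line (15.4%), 15 in wtATMIN (7.75%) and 11 in ATMIN knock-out cells (10.9%). The only call in the other direction was Hsd17b7, a sterol ketoreductase, in the ATMIN knock-out line (0.28; 9.48% of all tested genes rose there), and it was lost without replicate 1 or 2 of the DMSO samples or replicate 2 of the APH samples (0.28 each). Median log2 changes of the 18 were −0.55, −0.62, −0.52 and −0.33 in that order of lines, against −0.01, 0.00, −0.01 and −0.02 for all tested genes. Without replicate 2 of the wtATM DMSO samples at 4 h, 10 of the 18 fell in wtATM rather than 16.

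At 24 h the count differed by line. In wtATM 9 of the 18 fell (14.3% of all tested genes), in the ATM knock-out line 5 (12.2%), in wtATMIN 7 (15.3%) and in ATMIN knock-out cells 14 (15.8%). Hsd17b7 rose in wtATM by 0.38 (14.4% of all tested genes rose) and in wtATMIN by 0.22 (13.6%) on the log2 scale, the second of these a call lost without any 1 of the 4 wtATMIN samples (0.17 to 0.24). Medians of the 18 were −0.32, −0.15, −0.20 and −0.56, against medians of all tested genes between 0.00 and 0.01. The ATM knock-out count was 3 without replicate 1 of either its DMSO or its APH samples, and 8 when only the compared groups were fitted.

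Lanosterol synthase (Lss, chr10:76531588-76557138, plus strand, mm10) closes squalene epoxide into the first sterol. Its level at 4 h in DMSO and then APH was 163 and 176 against 88.9 and 105 CPM in wtATM, 172 and 203 against 87.2 and 79.4 in the ATM knock-out line, 138 and 136 against 93.9 and 97.2 in wtATMIN, and 148 and 151 against 102 and 103 in ATMIN knock-out cells. At 24 h the same order gave 147 and 144 against 89.1 and 93.0, 196 and 192 against 138 and 143, 77.6 and 73.5 against 64.1 and 63.1, and 73.2 and 70.1 against 41.6 and 43.5 CPM. Both APH samples were below both DMSO samples in each line at each time. The log2 changes at 4 h were −0.81 ± 0.07, −1.17 ± 0.08, −0.52 ± 0.07 and −0.54 ± 0.07 (SE, n = 2 per group), with adjusted p between 1.42e-13 and 3e-06 from edgeR's quasi-likelihood test. At 24 h they were −0.68 ± 0.07, −0.46 ± 0.07, −0.25 ± 0.08 and −0.75 ± 0.08. The smallest of these, in wtATMIN at 24 h (edgeR adjusted p = 0.0115), missed the threshold without replicate 1 of its DMSO samples (−0.23) or replicate 2 of its APH samples (−0.25), and when libraries were scaled by their totals alone (−0.17).

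Squalene epoxidase (Sqle, chr15:59315077-59331192, plus strand) catalyses the step before Lss. At 4 h its DMSO and APH samples stood at 406 and 443 against 261 and 305 CPM in wtATM, 249 and 265 against 139 and 149 in the ATM knock-out line, 184 and 181 against 116 and 120 in wtATMIN, and 300 and 301 against 250 and 266 in ATMIN knock-out cells. At 24 h they stood at 358 and 357 against 228 and 213, 253 and 256 against 168 and 171, 109 and 108 against 74.3 and 75.1, and 199 and 201 against 110 and 104 CPM. No APH sample reached a DMSO sample of its own line and time. The ATMIN knock-out line gave both the smallest log2 change, −0.22 ± 0.06 at 4 h (edgeR adjusted p = 0.0119), and the largest, −0.90 ± 0.07 at 24 h (1.28e-12). The call at 4 h in that line was lost without replicate 1 or 2 of its DMSO samples (−0.22 each) or replicate 1 of its APH samples (−0.18). The other 6 changes lay between −0.54 and −0.84.

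Mevalonate diphosphate decarboxylase (Mvd, chr8:122433601-122443422, minus strand) makes isopentenyl diphosphate. At 4 h its levels in DMSO and APH were 52.4 and 56.9 against 31.2 and 35.0 CPM in wtATM, 55.9 and 72.0 against 24.4 and 22.9 in the ATM knock-out line, 111 and 129 against 71.4 and 85.9 in wtATMIN, and 85.0 and 85.8 against 57.1 and 53.3 in ATMIN knock-out cells. At 24 h they were 37.6 and 39.3 against 27.6 and 26.2, 46.5 and 43.8 against 39.9 and 38, 28.9 and 25.9 against 28.4 and 27.6, and 30.2 and 35.2 against 22.9 and 22.6 CPM. The groups were apart in every line at 4 h and overlapped in wtATMIN at 24 h. The log2 changes at 4 h were −0.73 ± 0.11, −1.43 ± 0.11, −0.61 ± 0.09 and −0.63 ± 0.10 (SE, n = 2 per group). At 24 h Mvd fell in wtATM (−0.52 ± 0.11) and in the ATMIN knock-out line (−0.52 ± 0.11), and missed the threshold in the ATM knock-out line (−0.21 ± 0.10, edgeR adjusted p = 0.127) and in wtATMIN (0.03 ± 0.11, 0.892).

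**Figure D1:**
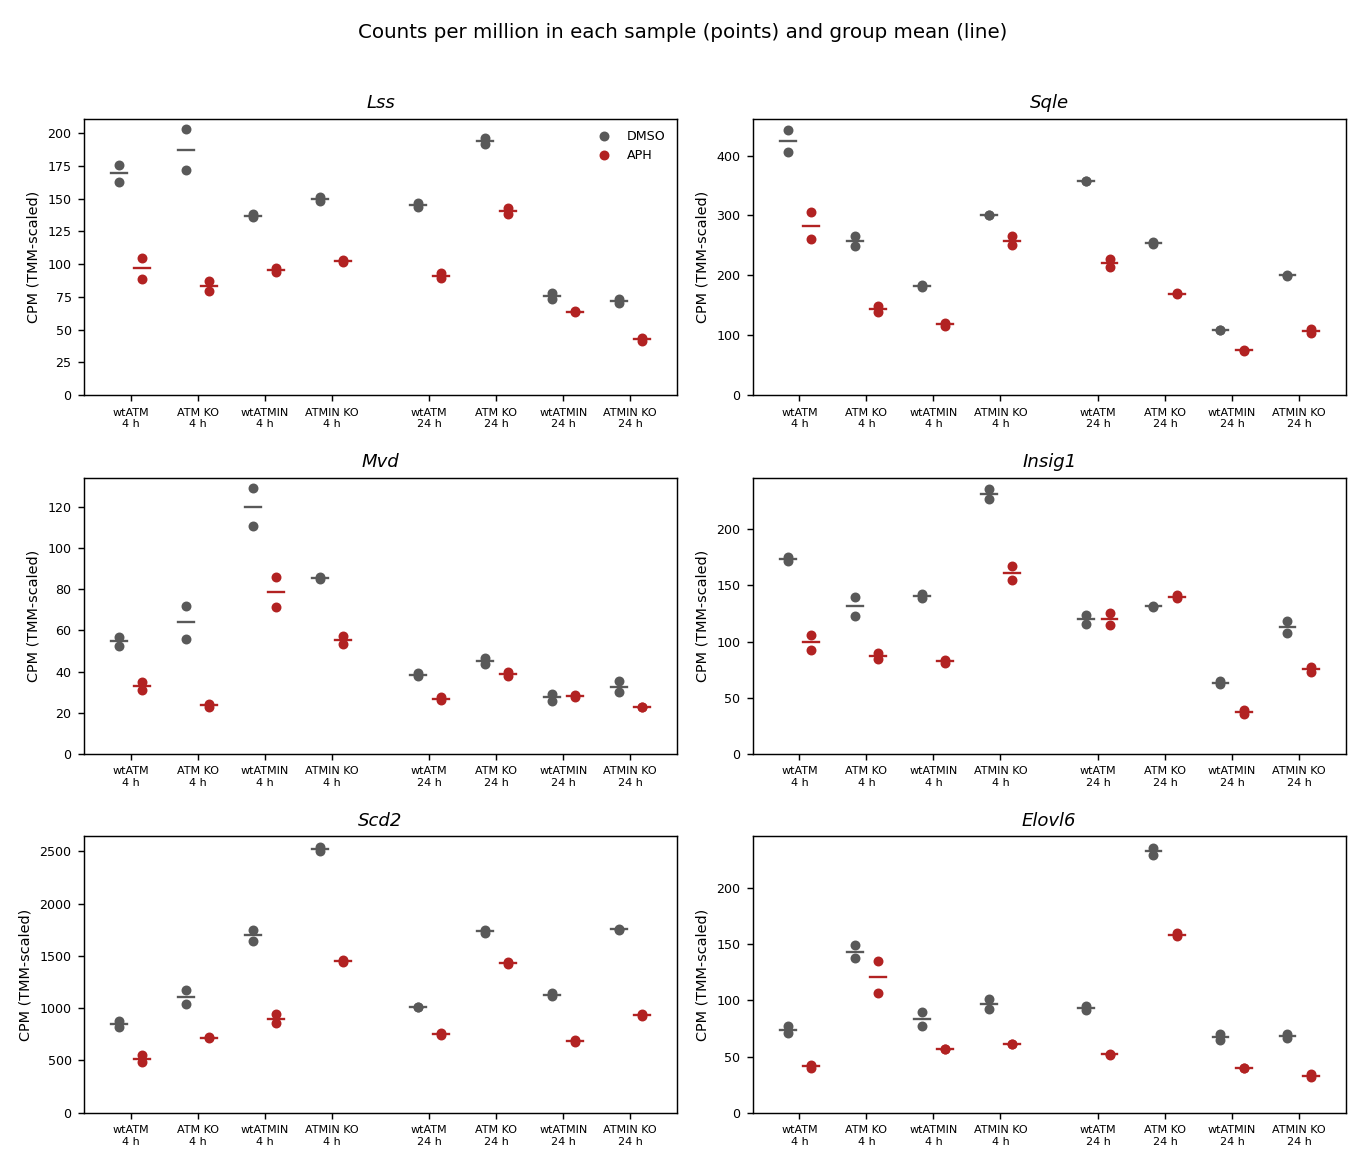
CPM of Lss, Sqle, Mvd, Insig1, Scd2 and Elovl6 in each of the 32 samples (points) with group means (short lines), by line, treatment and time. APH samples lie below the DMSO samples of the same line and time for Lss, Sqle, Scd2 and Elovl6 throughout, while Insig1 groups overlap or are reversed at 24 h in wtATM and the ATM knock-out line.

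The summed CPM of the 18 sterol synthesis genes was lower with APH in every line as well. At 4 h it was 1997 and 2147 in DMSO against 1311 and 1486 in APH in wtATM, 2218 and 2533 against 1503 and 1604 in the ATM knock-out line, 2181 and 2267 against 1531 and 1648 in wtATMIN, and 2641 and 2633 against 2079 and 2141 in ATMIN knock-out cells. The 24 h sums were 2070 and 2065 against 1664 and 1558, 2637 and 2713 against 2338 and 2366, 1221 and 1203 against 951.2 and 974.8, and 1560 and 1612 against 1075 and 1031. In each of the 8 comparisons both APH libraries lay below both DMSO libraries.

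Of all 34 members, 23, 25, 23 and 20 fell and 0, 0, 0 and 1 rose at 4 h in wtATM, the ATM knock-out line, wtATMIN and the ATMIN knock-out line, where 5.58%, 29.4%, 15% and 20.4% of all tested genes were called in either direction and 2.82%, 14%, 7.25% and 9.48% rose. With only the compared groups fitted, 16 of the 34 rather than 25 were called in the ATM knock-out line. At 24 h 17, 10, 14 and 25 fell and 4, 2, 2 and 0 rose, against 28.7%, 27.9%, 28.8% and 30.2% of all tested genes called and 14.4%, 15.7%, 13.6% and 14.3% higher. In wtATMIN at 24 h the split was 5 higher and 11 lower with libraries scaled by their totals alone.

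At 4 h 14 members fell in all 4 lines, as did 0.893% of all tested genes. These were Acat2, Hmgcs1, Mvk, Mvd, Fdps, Fdft1, Sqle, Lss, Msmo1 and Nsdhl of sterol synthesis, the regulator Insig1, and Scd1, Scd2 and Elovl6 of fatty acid synthesis. Of the 14, 9 kept all their calls whichever library was left out, and Mvk, Fdps, Sqle, Nsdhl and Elovl6 lost at least 1. At 24 h 7 members fell in all 4 lines (3.13% of all tested genes): Fdps, Sqle, Lss, Stard4, Scd2, Acaca and Elovl6. Fdps (farnesyl diphosphate synthase), Sqle, Lss, Scd2 and Elovl6 fell in all 8 comparisons, as did 15 of the 18484 tested genes (0.0812%), and of these 5 Scd2 alone kept its calls without any 1 library. No member rose in all 4 lines at either time.

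Other sterol enzymes were not called alike. Ebp, a sterol isomerase, fell in 1 of the 8 comparisons, Idi1, the isopentenyl diphosphate isomerase, in 2, and Pmvk, phosphomevalonate kinase, in 3. Acat2, the cytosolic thiolase that starts the pathway, fell in 4 of 4 lines at 4 h (−0.50, −0.60, −0.40 and −0.41) and in none at 24 h (0.08, 0.08, 0.15 and 0.01). Its samples, described after their values were seen, were 126 and 135 in DMSO against 86.0 and 99.2 CPM in APH in wtATM at 4 h, and 103 and 104 against 112 and 106 CPM at 24 h. Acat2 shares 39.06% of its 50-base stretches with its neighbour Acat3, so reads of the pair may have been split by the counting. Fdps shares 26.71% of its exon bases with the same-strand gene Gm43738, and Tm7sf2 12.08% with the same-strand gene Vps51. On the other strand, Fdft1 shares 18.31% with Ctsb and Scap 13.23% with 5830462I19Rik. Strand cannot separate reads of the same-strand pairs. The strand setting of the counting is not given in the sources used here, so reads of the opposite-strand pairs cannot be told apart either.

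**Figure D2:**
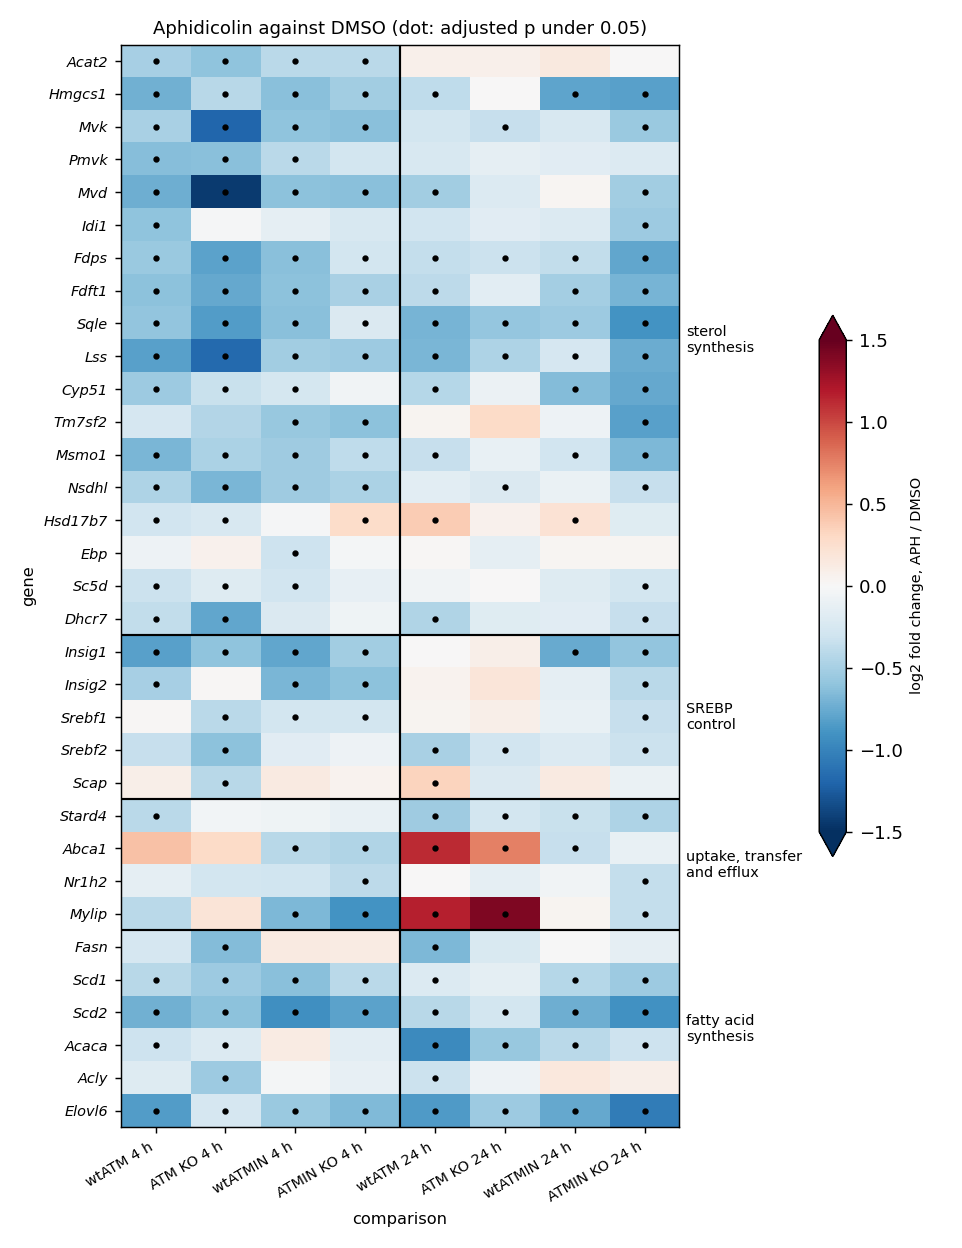
Log2 fold change, APH over DMSO, of 33 members (rows, by role; Abcg1 is left out because wtATM and the ATM knock-out line had almost no reads) in 8 comparisons (columns, by time and line). Colour runs from −1.5 to 1.5 and dots mark an adjusted p under 0.05: the 4 h columns are mostly below 0, and Mylip and Abca1 are above 0 at 24 h in wtATM and the ATM knock-out line.

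Promoter sequences of 5 members are shown to let the response be read beside the DNA that the SREBPs and their partners are known to bind. They were chosen after the values were seen: Hmgcs1 for its sterol regulatory element, Lss and Mvd as sterol enzymes, Insig1 as a regulator and Elovl6 as a fatty acid gene. Each run comes from the RefSeq table of build GRCm38.p6, 5′ to 3′ on the gene's strand, and ends just before the RefSeq start or the start of the mm10 gene annotation, whichever lies further upstream. Capitals mark the sterol regulatory element core TCACNCCAC and the NF-Y box CCAAT, read on either strand.
Hmgcs1, chr13:119690101-119690350, plus strand: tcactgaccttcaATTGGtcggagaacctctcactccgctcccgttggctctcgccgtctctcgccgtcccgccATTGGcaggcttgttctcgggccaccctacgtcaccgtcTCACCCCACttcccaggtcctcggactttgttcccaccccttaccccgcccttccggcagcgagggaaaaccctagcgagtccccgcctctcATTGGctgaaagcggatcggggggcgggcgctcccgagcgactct
Lss, chr10:76531355-76531587, plus strand: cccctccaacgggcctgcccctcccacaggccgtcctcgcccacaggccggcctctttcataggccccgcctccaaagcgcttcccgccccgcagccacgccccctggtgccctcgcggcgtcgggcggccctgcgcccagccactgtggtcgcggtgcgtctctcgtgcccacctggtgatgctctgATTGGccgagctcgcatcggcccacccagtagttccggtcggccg
Mvd, chr8:122443423-122443672, minus strand: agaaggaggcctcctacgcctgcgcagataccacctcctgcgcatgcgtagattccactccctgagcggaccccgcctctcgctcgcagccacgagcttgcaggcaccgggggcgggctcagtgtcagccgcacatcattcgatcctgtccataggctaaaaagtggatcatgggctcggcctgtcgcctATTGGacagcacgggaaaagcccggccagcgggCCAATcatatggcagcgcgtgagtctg
Insig1, chr5:28071162-28071362, plus strand: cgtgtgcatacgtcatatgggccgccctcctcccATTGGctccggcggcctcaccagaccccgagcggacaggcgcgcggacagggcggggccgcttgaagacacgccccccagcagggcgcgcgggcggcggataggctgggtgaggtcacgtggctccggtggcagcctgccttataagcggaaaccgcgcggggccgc
Elovl6, chr3:129532136-129532354, plus strand: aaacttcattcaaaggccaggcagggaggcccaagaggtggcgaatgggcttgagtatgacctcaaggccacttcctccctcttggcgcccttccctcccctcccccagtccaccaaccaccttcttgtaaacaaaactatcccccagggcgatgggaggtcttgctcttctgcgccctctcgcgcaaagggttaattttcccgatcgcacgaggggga
Hmgcs1 held 1 sterol regulatory element core, read as TCACCCCAC, 137 bases before the end of its printed run, counted from the motif's first base, and NF-Y boxes at 237, 176 and 45 bases. Counted in the same way, Lss held 1 NF-Y box at 45 bases, Mvd held 2, at 60 and 27 bases, and Insig1 held 1, at 167 bases. Neither motif was in the Elovl6 window.

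RefSeq promoter windows, 250 bases before to 50 after the start, matched 27 of the 34 members. Fdps, Fdft1, Sqle, Stard4, Abcg1, Scd1 and Scd2 had no entry. Dhcr7, Insig2, Srebf1, Pmvk and Scap had more than 1 window, and a member counted if any of its windows held a motif. The Acaca window (chr11:84195188-84195487) lies inside the annotated gene (chr11:84129672-84401651, plus strand). The core TCACNCCAC was in 1 of the 27 members (3.7%) and in 1.44% of 27025 genes. The box CCAAT was in 21 members (77.8%) and 41.1% of all, the E-box CACGTG in 6 (22.2%) and 8.09%, and the Sp1 box GGGCGG in 22 (81.5%) and 38.2%. The motifs were searched on both strands, and some can share bases as spelled, so their shares are not separate. By role, CCAAT was in 14 of 15 sterol synthesis genes with a window. It was in 4 of 5 of SREBP control, 1 of 3 of uptake, transfer and efflux, and 2 of 4 of fatty acid synthesis. Among the 9 members with a window that fell in all 4 lines at 4 h, 7 held CCAAT, as did 14 of the other 18. A match is a description of the letters only.

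Hmgcs1 (HMG-CoA synthase, chr13:119690379-119708260, plus strand), shown with its promoter and chosen after its values were seen, makes HMG-CoA. In DMSO and APH at 4 h its levels were 202 and 206 against 122 and 126 CPM in wtATM, 281 and 298 against 203 and 231 in the ATM knock-out line, 275 and 261 against 161 and 187 in wtATMIN, and 365 and 354 against 254 and 248 in ATMIN knock-out cells. At 24 h they were 268 and 261 against 217 and 191, 335 and 351 against 343 and 343, 172 and 174 against 97.5 and 102, and 253 and 263 against 148 and 144 CPM. The groups were apart everywhere but in the ATM knock-out line at 24 h, where the APH samples lay between the DMSO samples. The log2 changes were −0.72, −0.42, −0.63 and −0.52 at 4 h, and −0.38, 0.00, −0.79 and −0.82 at 24 h (SE 0.07 each). With only the compared groups fitted, the 4 h change in the ATM knock-out line was −0.39 and no longer called. The antisense gene Gm48342 covers 12.12% of the Hmgcs1 exon bases.

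Among the 5 genes of SREBP control, 2, 4, 3 and 3 fell at 4 h in wtATM, the ATM knock-out line, wtATMIN and the ATMIN knock-out line, where 2.76%, 15.4%, 7.75% and 10.9% of all tested genes fell, and none rose. At 24 h 1, 1, 1 and 4 fell, against 14.3%, 12.2%, 15.3% and 15.8% of all tested genes, so that 1 of 5 is near the background. Scap, the escort protein gene, rose in wtATM at 24 h (0.33; 14.4% of all tested genes rose), a call lost without replicate 1 of the DMSO (0.29) or replicate 2 of the APH samples (0.24). Srebf1 fell in 3 lines at 4 h and 1 at 24 h, by at most 0.40. Insig1, which encodes the retention protein and is itself an SREBP target, carried the largest mean change of the 5.

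Insig1 (chr5:28071363-28078662, plus strand) at 4 h stood at 172 and 175 in DMSO against 92.4 and 106 CPM in APH in wtATM, 123 and 140 against 89.8 and 84.2 in the ATM knock-out line, 139 and 142 against 80.7 and 83.8 in wtATMIN, and 236 and 227 against 155 and 167 in ATMIN knock-out cells. Its 24 h levels were 124 and 116 against 125 and 115, 132 and 131 against 139 and 141, 64.5 and 61.8 against 35.7 and 39.0, and 108 and 118 against 73.3 and 76.9 CPM. All 4 lines had separate groups at 4 h; at 24 h wtATMIN and the ATMIN knock-out line still did, wtATM overlapped, and in the ATM knock-out line the APH samples were the higher ones. Insig1 fell at 4 h by 0.81 ± 0.07, 0.60 ± 0.07, 0.78 ± 0.07 and 0.52 ± 0.07 on the log2 scale (SE, n = 2 per group; edgeR adjusted p at most 5.77e-07). At 24 h the changes were 0.00 ± 0.07 in wtATM, 0.09 ± 0.07 in the ATM knock-out line (edgeR adjusted p = 0.36), −0.76 ± 0.08 in wtATMIN and −0.59 ± 0.07 in ATMIN knock-out cells.

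Insig2, the second retention protein gene, was 31.7 and 31.5 in DMSO against 21.6 and 23.3 CPM in APH in wtATM at 4 h, 14.3 and 12.2 against 13.7 and 13.2 in the ATM knock-out line, 16.5 and 17 against 10.3 and 10.7 in wtATMIN, and 33.4 and 31.1 against 21.2 and 20.7 in ATMIN knock-out cells. The 24 h samples were 30 and 31.6 against 31.0 and 33.0, 15.5 and 14.7 against 16.4 and 17.9, 21.7 and 23.7 against 22.4 and 18.9, and 31.4 and 32.7 against 24.2 and 24.0 CPM. The ATM knock-out groups overlapped at 4 h and were separate, with APH above DMSO, at 24 h. Insig2 fell at 4 h in wtATM (−0.50 ± 0.09), in wtATMIN (−0.68 ± 0.11) and in ATMIN knock-out cells (−0.62 ± 0.09), and at 24 h in the ATMIN knock-out line (−0.41 ± 0.09, edgeR adjusted p = 0.000591). In the ATM knock-out line the values were 0.02 ± 0.12 at 4 h and 0.18 at 24 h, neither called.

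Srebf2 was 392 and 424 in DMSO against 303 and 343 CPM in APH in wtATM at 4 h, 424 and 459 against 336 and 239 in the ATM knock-out line, 379 and 430 against 358 and 359 in wtATMIN, and 463 and 467 against 424 and 455 in ATMIN knock-out cells. After 24 h it was 283 and 304 against 195 and 223, 358 and 326 against 263 and 296, 261 and 233 against 215 and 216, and 289 and 274 against 220 and 232 CPM. APH samples were below DMSO samples in every line and time, by margins that varied. The gene fell in the ATM knock-out line at 4 h (−0.62 ± 0.11, edgeR adjusted p = 0.000129), in wtATM at 24 h (−0.49 ± 0.11, 0.00101), in the ATM knock-out line at 24 h (−0.29 ± 0.11, 0.041) and in the ATMIN knock-out line at 24 h (−0.32 ± 0.11, 0.0251). The 24 h call in the ATM knock-out line was lost without replicate 1 (−0.23) or 2 (−0.36) of its DMSO samples or replicate 1 of its APH samples (−0.21), and that in the ATMIN knock-out line without any 1 of its 4 samples (−0.27 to −0.36).

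The 5 genes of sterol uptake, transfer and efflux did not move as a group. At 4 h 0, 0, 0 and 0 rose and 1, 0, 2 and 3 fell across wtATM, the ATM knock-out line, wtATMIN and the ATMIN knock-out line, while 2.76%, 15.4%, 7.75% and 10.9% of all tested genes fell. At 24 h 2, 2, 1 and 0 rose and 1, 1, 2 and 3 fell, against 14.4%, 15.7%, 13.6% and 14.3% of all tested genes higher and 14.3%, 12.2%, 15.3% and 15.8% lower. A count of 1 of 5 is near those shares. The genes that rose were Mylip and Abca1 in wtATM and the ATM knock-out line, and Abcg1 in wtATMIN, all of them known LXR targets. Abca1 and Mylip also fell elsewhere, in 3 comparisons each. Both fell at 4 h in wtATMIN and the ATMIN knock-out line. At 24 h Abca1 fell in wtATMIN, where Abcg1 rose, and Mylip fell in the ATMIN knock-out line.

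Stard4, a soluble sterol transfer protein and SREBP target, was 109 and 109 in DMSO against 80.2 and 84.7 CPM in APH in wtATM at 4 h, 106 and 103 against 95.6 and 108 in the ATM knock-out line, 89.0 and 82.6 against 79.9 and 83.8 in wtATMIN, and 119 and 116 against 114 and 104 in ATMIN knock-out cells. Its 24 h levels were 129 and 131 against 94.6 and 85.6, 148 and 162 against 129 and 127, 65.8 and 71.1 against 51.7 and 57.2, and 92.9 and 94.3 against 68.3 and 68.1 CPM. The groups were separate in all 4 lines at 24 h. At 4 h Stard4 fell in wtATM only by the test (−0.41 ± 0.07), with −0.04, −0.07 and −0.11 in the other lines. At 24 h it fell in all 4, by 0.53 ± 0.07, 0.27 ± 0.07, 0.33 ± 0.07 and 0.46 ± 0.07 (SE, n = 2 per group; edgeR adjusted p at most 0.00297). Without replicate 2 of the DMSO samples the ATM knock-out change was −0.21 and not called.

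Abca1 (chr4:53030787-53159895, minus strand) encodes a transporter that moves cholesterol out of the cell. In wtATM it was 1.2 and 0.972 in DMSO against 1.41 and 1.54 CPM in APH at 4 h, and 2.70 and 2.85 against 4.89 and 7.29 CPM at 24 h. In the ATM knock-out line it was 4.29 and 3.73 against 4.60 and 5.34 at 4 h, and 9.53 and 6.83 against 14.1 and 13.7 at 24 h. APH samples of these lines were the higher ones at both times. In wtATMIN it was 38.7 and 33.2 against 25.6 and 28.2 at 4 h, and 46.3 and 51.3 against 40.1 and 37.0 at 24 h. The ATMIN knock-out line had 14.7 and 13.4 against 11.7 and 8.76 at 4 h, and 29.1 and 24.5 against 24.3 and 25.3 at 24 h. There the APH samples were the lower ones, save for overlap in the ATMIN knock-out line at 24 h. At 24 h Abca1 rose by 1.12 ± 0.21 in wtATM (edgeR adjusted p = 7.99e-05) and by 0.76 ± 0.15 in the ATM knock-out line (0.000265), and fell by 0.34 ± 0.11 in wtATMIN (0.0223). The 4 h values were 0.44 ± 0.38 and 0.29 ± 0.23, not called, and −0.42 ± 0.12 and −0.45 ± 0.15, called. The 24 h call in wtATMIN was lost without replicate 2 of the DMSO (−0.26) or the APH samples (−0.29), with DESeq2 (−0.33) and with scaling by totals alone (−0.26). The 4 h call in wtATMIN was lost without replicate 1 of the DMSO (−0.31) or APH samples (−0.35), and that in the ATMIN knock-out line without replicate 1 (−0.38) or 2 (−0.52) of DMSO or replicate 2 of APH (−0.27).

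Mylip (chr13:45389742-45412022, plus strand), a ubiquitin ligase that lowers lipoprotein uptake, was described after its values were seen. At 4 h it was 7.54 and 8.04 in DMSO against 6.19 and 5.59 CPM in APH in wtATM, 12.1 and 13 against 15.0 and 13.6 in the ATM knock-out line, 10.3 and 10.7 against 5.95 and 7.25 in wtATMIN, and 12.3 and 13.9 against 6.72 and 7.41 in ATMIN knock-out cells. The 24 h levels were 6.71 and 6.45 against 16.9 and 12.5, 9.17 and 9.66 against 26.3 and 23.5, 21.9 and 21.8 against 21.9 and 22.9, and 18.4 and 20.3 against 16 and 14.1 CPM. Within wtATM the APH samples were thus below DMSO at 4 h and above it at 24 h. Mylip rose at 24 h by 1.17 ± 0.14 in wtATM and by 1.40 ± 0.13 in the ATM knock-out line (edgeR adjusted p = 2.64e-08 and 8.44e-11). It fell at 4 h in wtATMIN (−0.67 ± 0.14, 0.00108) and in ATMIN knock-out cells (−0.90 ± 0.14, 7.46e-06), and at 24 h in the ATMIN knock-out line (−0.36 ± 0.12, 0.0191). The last call was lost without replicate 2 of the DMSO (−0.29) or APH samples (−0.27) and with scaling by totals alone (−0.27), and the 4 h call in wtATMIN without replicate 1 of the APH samples (−0.54).

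Abcg1 (chr17:31057675-31117988, plus strand), the other LXR-induced sterol exporter, was near the limit of detection outside wtATMIN. The 8 libraries of wtATM held 3 reads and those of the ATM knock-out line 1 read, against 175 reads in wtATMIN and 28 in ATMIN knock-out cells. Mean levels over each line were 0.0263, 0.0139, 1.26 and 0.200 CPM in the usual order. In wtATMIN the samples were 0.901 and 1.48 in DMSO against 1.34 and 2.18 CPM in APH at 4 h, and 0.483 and 0.486 against 1.71 and 1.54 CPM at 24 h, so that the groups were apart at 24 h alone. The ATMIN knock-out samples were 0.227 and 0.273 against 0.177 and 0.0749 CPM at 4 h, and 0.179 and 0.0632 against 0.315 and 0.294 CPM at 24 h. The gene rose in wtATMIN at 24 h by 1.73 ± 0.47 (edgeR adjusted p = 0.00501), a call lost without replicate 1 of the DMSO samples (1.70). The mean that placed Abcg1 among the genes shown sample by sample rests partly on fitted values from wtATM and the ATM knock-out line, where so few reads bound no fold.

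Nr1h2, which encodes LXR beta, was 71.8 and 71.6 in DMSO against 67.6 and 63.6 CPM in APH in wtATM at 4 h, 65.0 and 63.3 against 60.4 and 45.0 in the ATM knock-out line, 41.6 and 48.7 against 36.6 and 37.0 in wtATMIN, and 45.7 and 49.3 against 33.7 and 39.0 in ATMIN knock-out cells. After 24 h the levels were 57.4 and 57.1 against 53.5 and 60.7, 60.8 and 52.7 against 51.0 and 51.8, 48.8 and 38.6 against 42.4 and 42.7, and 54.0 and 49.4 against 39.8 and 41.0 CPM. The groups were separate in all lines at 4 h, and overlapped in wtATM and wtATMIN at 24 h. It fell in the ATMIN knock-out line alone by the test, by 0.39 ± 0.11 at 4 h and 0.36 ± 0.11 at 24 h (edgeR adjusted p = 0.00835 and 0.00966). The 4 h call was lost without replicate 2 of DMSO (−0.34) or replicate 1 of APH (−0.28), and the 24 h call without replicate 1 of DMSO (−0.29) or of APH (−0.33).

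**Figure D3:**
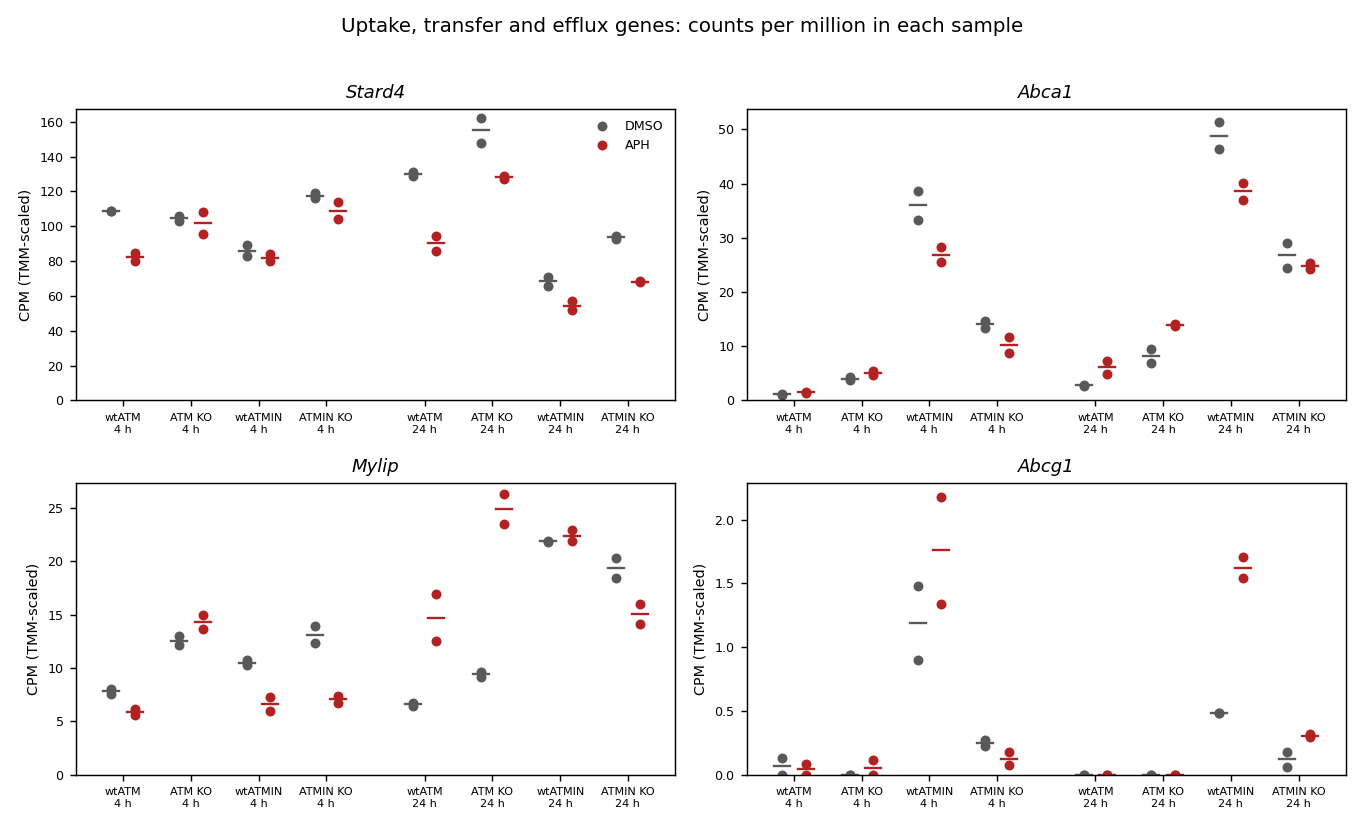
CPM of Stard4, Abca1, Mylip and Abcg1 in each of the 32 samples (points) with group means (short lines), by line, treatment and time. Abca1 lies below 8 CPM in every wtATM sample and above 25 CPM in every wtATMIN sample, and the Mylip APH samples at 24 h lie above 12 CPM in wtATM and above 23 CPM in the ATM knock-out line, where the DMSO samples stay below 10 CPM.

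Fatty acid synthesis genes also fell. Of the 6, 4, 6, 3 and 3 fell at 4 h and 6, 3, 4 and 4 at 24 h in wtATM, the ATM knock-out line, wtATMIN and the ATMIN knock-out line, and none rose. Of all tested genes 2.76%, 15.4%, 7.75% and 10.9% fell at 4 h and 14.3%, 12.2%, 15.3% and 15.8% at 24 h. The medians of the 6 were −0.37, −0.54, −0.29 and −0.28 at 4 h and −0.55, −0.25, −0.42 and −0.43 at 24 h on the log2 scale, against −0.02 to 0.00 and 0.00 to 0.01 for all tested genes. The desaturases and the elongase moved in most comparisons, whereas Fasn and Acly fell in 2 of 8 each.

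Elovl6 (chr3:129532355-129638495, plus strand) lengthens saturated and monounsaturated fatty acids. At 4 h it was 70.8 and 76.9 in DMSO against 42.6 and 39.9 CPM in APH in wtATM, 149 and 138 against 107 and 135 in the ATM knock-out line, 90.1 and 77 against 57.1 and 56.5 in wtATMIN, and 101 and 92.7 against 61.3 and 61.3 in ATMIN knock-out cells. Its levels at 24 h were 95.1 and 91.6 against 51.7 and 52.2, 230 and 236 against 157 and 160, 64.9 and 70.5 against 39.8 and 39.5, and 66.9 and 70.1 against 34.2 and 31.9 CPM. The narrowest gap was in the ATM knock-out line at 4 h, where APH replicate 2 came within a few CPM of a DMSO sample. The log2 changes were −0.84 ± 0.09, −0.25 ± 0.08, −0.56 ± 0.08 and −0.66 ± 0.08 at 4 h (SE, n = 2 per group). At 24 h they were −0.85 ± 0.08, −0.55 ± 0.08, −0.77 ± 0.09 and −1.05 ± 0.09, with edgeR adjusted p at most 1.13e-06. The 4 h call in the ATM knock-out line (edgeR adjusted p = 0.0202) was lost without replicate 1 of its DMSO (−0.20) or its APH samples (−0.10), and with only the compared groups fitted (−0.21).

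Scd2 (chr19:44293674-44306864, plus strand), a stearoyl-CoA desaturase, had the highest level of the members per kilobase. At 4 h it was 819 and 875 in DMSO against 481 and 547 CPM in APH in wtATM, 1040 and 1170 against 718 and 719 in the ATM knock-out line, 1750 and 1640 against 854 and 939 in wtATMIN, and 2500 and 2540 against 1460 and 1440 in ATMIN knock-out cells. At 24 h it was 1010 and 1010 against 763 and 747, 1720 and 1750 against 1420 and 1440, 1120 and 1140 against 675 and 693, and 1750 and 1760 against 929 and 948 CPM. Every APH sample was below the DMSO samples of its line and time. The log2 changes were −0.72, −0.62, −0.92 and −0.80 at 4 h and −0.42, −0.28, −0.73 and −0.91 at 24 h (SE 0.06 each; edgeR adjusted p at most 0.00091).

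Scd1, its paralog, stood at 220 and 249 in DMSO against 164 and 187 CPM in APH in wtATM at 4 h, 229 and 244 against 157 and 168 in the ATM knock-out line, 288 and 281 against 176 and 191 in wtATMIN, and 445 and 444 against 338 and 336 in ATMIN knock-out cells. At 24 h it stood at 220 and 219 against 191 and 188, 319 and 325 against 291 and 289, 242 and 251 against 183 and 182, and 279 and 279 against 192 and 190 CPM. Groups were separate throughout. Scd1 fell in all comparisons but that of the ATM knock-out line at 24 h (−0.15, edgeR adjusted p = 0.0713), with called changes from −0.21 to −0.63. The smallest, in wtATM at 24 h, was lost without replicate 1 (−0.20) or 2 (−0.21) of DMSO or replicate 2 of APH (−0.20), and with scaling by totals alone (−0.15). The Scd1, Scd2 and Scd3 genes share at most 2.66% of their 50-base stretches.

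Acaca, the acetyl-CoA carboxylase that commits carbon to fatty acids, was described after its values were seen. It fell at 24 h in all 4 lines, by 0.95, 0.57, 0.40 and 0.31 on the log2 scale (edgeR adjusted p at most 0.000821). In wtATM it went from 210 and 201 CPM in DMSO to 95.6 and 117 CPM in APH at 24 h, the largest log2 change of the 4 lines. At 4 h it fell in wtATM (−0.31 ± 0.07) and in the ATM knock-out line (−0.21) and was 0.12 and −0.16, not called, in wtATMIN and the ATMIN knock-out line. The wtATM call at 4 h was lost without replicate 2 of DMSO (−0.26) or replicate 1 of APH (−0.29), and the ATM knock-out call without replicate 1 of DMSO or replicate 2 of APH (−0.19 each). Fasn, the fatty acid synthase, also described after its values were seen, was 531 and 535 in DMSO against 298 and 370 CPM in APH in wtATM at 24 h, a change of −0.67, and was −0.23, −0.01 and −0.14 in the other lines at that time, none called. The pseudogene Gm5182 holds copies of 29.16% of the Acaca 50-base stretches.

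The difference between the log2 change at 24 h and at 4 h was called for 10 of 34 in wtATM (8 higher and 2 lower; 15.1% of all tested genes were called, 7.87% higher and 7.24% lower), 22 in ATM knock-out cells (20 and 2; 22%, 12.1% and 9.89%), 7 in wtATMIN (5 and 2; 18.6%, 9.12% and 9.44%) and 9 in ATMIN knock-out cells (2 and 7; 21.1%, 10.8% and 10.3%). Insig1 shifted up by 0.81 ± 0.10 in wtATM and 0.69 ± 0.10 in the ATM knock-out line, and Mvd by 1.21 ± 0.15 in the ATM knock-out line. In the ATMIN knock-out line Sqle shifted down by 0.68 ± 0.09 and Cyp51, the lanosterol demethylase, by 0.72 ± 0.11. Acat2 shifted up in all 4 lines, by 0.58, 0.68, 0.55 and 0.41. The wtATM count was 6 without replicate 2 of the 4 h DMSO, replicate 1 of the 4 h APH, replicate 2 of the 24 h DMSO or replicate 1 of the 24 h APH samples. The ATM knock-out count was 13 without replicate 2 of its 4 h DMSO samples and 10 with only the compared groups fitted. With scaling by totals alone the split was 11 higher and 1 lower in wtATMIN, and 3 and 4 in ATMIN knock-out cells.

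The response to APH was then set between each knock-out line and its wild type. At 4 h 12 members differed for ATM (5 higher and 7 lower in the knock-out; 11.4% of all tested genes, 6.02% higher and 5.35% lower). Those with the smallest p were Elovl6 (0.59 ± 0.12, edgeR adjusted p = 0.00217), Mvd (−0.70 ± 0.15, 0.00452), the mevalonate kinase gene Mvk (−0.69 ± 0.16, 0.0065), Scap (−0.51 ± 0.13, 0.0109) and the ATP citrate lyase gene Acly (−0.35 ± 0.09, 0.0119). The count moved with single libraries: 1 member was called without replicate 2 of the ATM knock-out DMSO samples, 2 without replicate 2 of its APH samples, 3 without replicate 1 of the wtATM DMSO samples and 6 without replicate 2 of its APH samples. With only the compared groups fitted 0 were called, although 12 were with the spread shared over all groups, and with scaling by totals alone the split was 1 higher and 11 lower. Of the 5 named, Mvd (−0.51), Mvk (−0.55), Scap (−0.48) and Acly (−0.30) were not called without replicate 2 of the ATM knock-out DMSO samples, and Elovl6 was called whichever library was left out. At 24 h 3 differed for ATM (3.92% of all tested genes, 2.68% higher and 1.23% lower): Scap (−0.55 ± 0.13), Hmgcs1 (0.38 ± 0.10) and Acaca (0.39 ± 0.10), with edgeR adjusted p between 0.0103 and 0.0188. With scaling by totals alone the 24 h split went from 2 higher and 1 lower to 1 and 1, and with 1 library left out at a time from 0 to 3 were called. None of these 3 was called without replicate 1 of the wtATM DMSO or replicate 1 of the ATM knock-out DMSO or APH samples, where Scap was −0.50, −0.53 and −0.47, and 1 of them was called without replicate 2 of the wtATM APH (Acaca) or of the ATM knock-out APH samples (Scap).

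For ATMIN the response differed at 4 h in 1 member, Sqle (0.41 ± 0.09, edgeR adjusted p = 0.0226; 0.671% of all tested genes, 0.346% higher), and it stayed called only without replicate 1 of the wtATMIN DMSO or of the ATMIN knock-out APH samples, at 0.36 to 0.43 over the others. At 24 h 3 differed (2.43% of all tested genes, 1.42% lower), all lower in the knock-out: Lss (−0.50 ± 0.11), Sqle (−0.36 ± 0.09) and Mvd (−0.55 ± 0.15), with edgeR adjusted p of 0.00594, 0.03 and 0.0474. With 1 library left out at most 1 of them was called (Lss from −0.45 to −0.47, Sqle from −0.30 to −0.38 and Mvd from −0.44 to −0.61 where the call was lost), and with only the compared groups fitted 8 members were.

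The 2 wild-type lines were compared in the same way after the values were seen. At 4 h their APH responses differed in 1 member, Acaca (0.43 ± 0.10 higher in wtATMIN, edgeR adjusted p = 0.0119; 2.44% of all tested genes, 1.04% higher). At 24 h 10 members differed, 5 in each direction (14.1% of all tested genes, 6.43% higher and 7.66% lower). Insig1 (−0.76 ± 0.11), Mylip (−1.13 ± 0.18) and Abca1 (−1.46 ± 0.24) were lower in wtATMIN, and Acaca (0.55 ± 0.10) and Acly (0.48 ± 0.09) higher, with edgeR adjusted p from 2.9e-06 to 0.000263. The Acaca difference at 4 h was lost without replicate 2 of the wtATM DMSO (0.38), replicate 1 of the wtATM APH (0.41), replicate 2 of the wtATMIN DMSO (0.33) or replicate 1 of the wtATMIN APH samples (0.41).

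Levels of the members in the knock-out lines were next compared with those in their wild types, treatment by treatment. In the ATM pair, 17 members were higher and 6 lower in the knock-out in DMSO at 4 h (55.2% of all tested genes called, 27.3% higher and 27.9% lower). They were 15 and 11 in APH at 4 h (58.9%, 30.3% and 28.6%), 21 and 5 in DMSO at 24 h (59.3%, 29.5% and 29.8%), and 25 and 5 in APH at 24 h (61.3%, 31.5% and 29.9%). In the ATMIN pair the counts were 17 and 7 (44.9%, 21.9% and 23%), 20 and 7 (42.1%, 19.8% and 22.3%), 15 and 4 (49.6%, 23.4% and 26.2%) and 10 and 12 (50.6%, 23.8% and 26.8%). Between 42.1% and 61.3% of all tested genes were called in these comparisons, so a called member is not unusual there.

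In the ATM pair 14 members were higher in all 4 comparisons (18% of all tested genes) and 4 lower (17.7%). Higher were Abca1, Acaca, Acly, Elovl6, Fasn, Fdft1, Fdps, Hmgcs1, Idi1, Msmo1, Mylip, Pmvk, Sc5d and Scd2, and lower were Ebp, Hsd17b7, Insig2 and Sqle. All but Acly, Fdft1 and Hsd17b7 kept these calls without any 1 library. Pmvk was 10.6 to 20.7 CPM over the 8 wtATM samples (median 16.4) and 43.4 to 82.3 CPM over the 8 ATM knock-out samples (median 72.4), with no overlap. The log2 differences were 1.92 ± 0.11, 1.92 ± 0.12, 2.11 ± 0.11 and 2.21 ± 0.11 in the order given above (folds of 3.79 to 4.63). Ebp was 42.2 to 71.3 CPM (median 58.4) in wtATM and 17.6 to 24.4 CPM (median 20.6) in the knock-out, again apart, with differences of −1.33, −1.18, −1.54 and −1.68. Abca1 differed by 1.89 ± 0.30, 1.74 ± 0.28, 1.57 ± 0.20 and 1.21 ± 0.16. Fdft1 and Sqle, whose enzymes catalyse consecutive steps, thus differed in opposite directions in this pair.

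Of the 6 fatty acid genes, 5, 5, 6 and 6 were higher in the ATM knock-out line in those 4 comparisons, as were 27.3%, 30.3%, 29.5% and 31.5% of all tested genes, with medians of 0.53, 0.53, 0.91 and 1.22 on the log2 scale. Fasn differed by 0.98, 0.57, 1.22 and 1.66 and Elovl6 by 0.95, 1.55, 1.32 and 1.61. The summed CPM of 8 adipocyte markers was 29.2 to 42 in the ATM knock-out line and 2.37 to 5.23 in wtATM, most of it from Lpl (mean 27.6 CPM); Adipoq was at most 0.0177 CPM in any line, and Cfd had no reads in the ATM knock-out line. The part of these markers in the result was not tested.

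In the ATMIN pair 10 members were higher in all 4 comparisons (11.4% of all tested genes), namely Acaca, Acat2, Hmgcs1, Insig1, Insig2, Mvk, Sc5d, Scd2, Sqle and Stard4. Abca1, Abcg1, Pmvk and Srebf1 were lower in all 4 (13.2%). Acaca, Insig2, Abcg1, Pmvk and Srebf1 lost at least 1 of these calls when 1 library was left out. Insig1 differed by 0.72, 0.97, 0.84 and 1.01 (SE 0.07 to 0.08; edgeR adjusted p at most 1.18e-10), with 73.3 to 236 CPM (median 136) over the ATMIN knock-out samples and 35.7 to 142 CPM (median 72.6) in wtATMIN. These ranges overlap because the level also moves with treatment and time; within each treatment and time all knock-out samples were above the wild-type samples. Abca1 differed by −1.35 ± 0.13, −1.38 ± 0.14, −0.86 ± 0.12 and −0.64 ± 0.12. Abcg1 had 175 reads over the 8 wtATMIN libraries and 28 over those of the ATMIN knock-out line, and its call in DMSO at 24 h was lost without any 1 of the 4 samples and with DESeq2 (−1.98).

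The summed adipocyte markers were 99.2 to 121 CPM in DMSO and 64.3 to 91.9 CPM in APH in the ATMIN knock-out line, and 11.8 to 28.9 and 11.4 to 18.8 CPM in wtATMIN. Fabp4, at a mean of 76.5 CPM, made up most of the sum in the knock-out, where Lep and Lpl had no reads. The sum was lower with APH in that line without overlap, as were most members. The part of these markers in either result was not tested. Macrophage markers summed to 9.35 to 36.3 CPM over all libraries, with Tyrobp at 0 throughout, and endothelial and epithelial lists to at most 11.2 CPM.

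**Figure D4:**
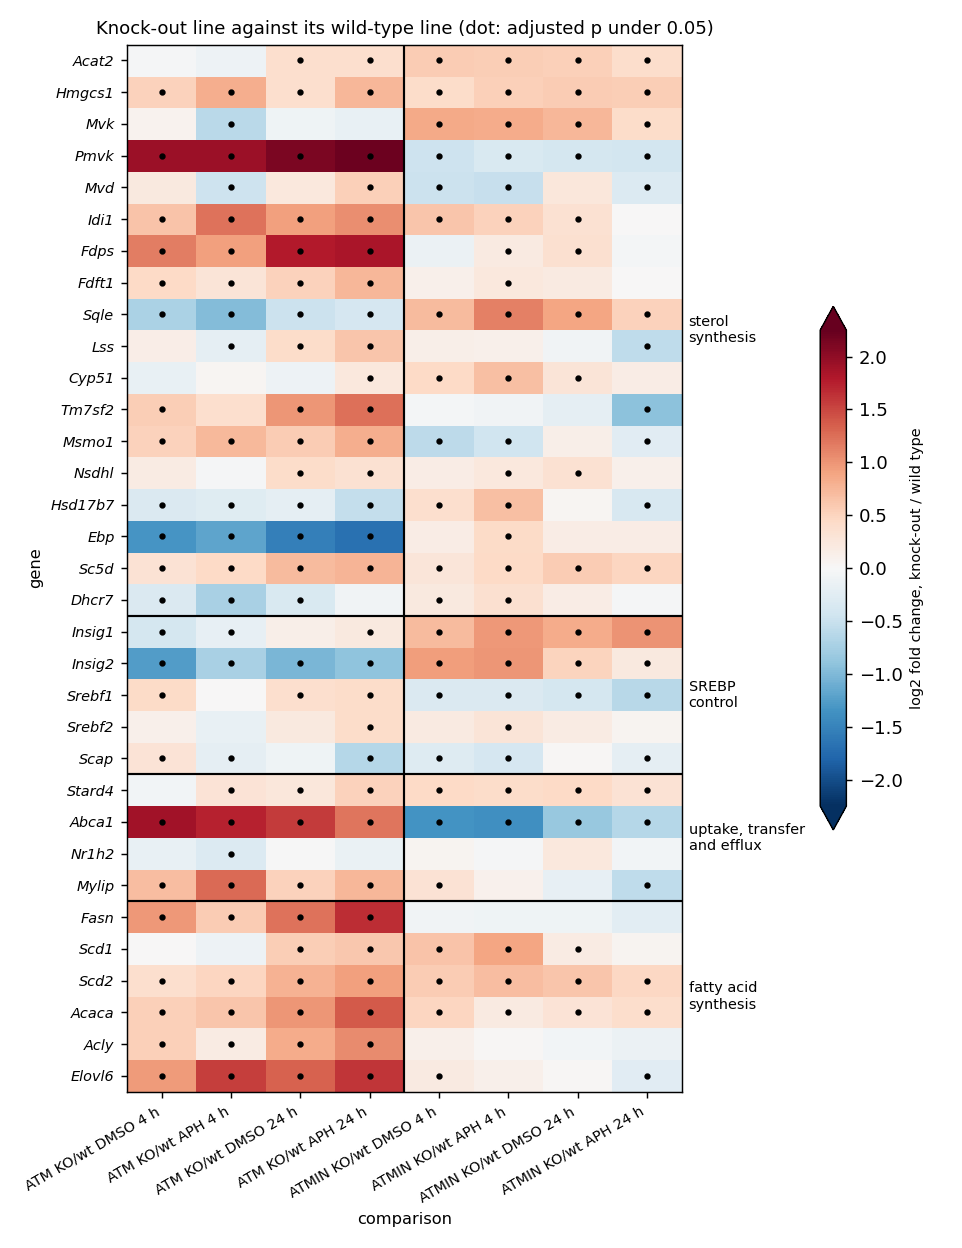
Log2 fold change, knock-out over its wild type, of 33 members (rows, by role; Abcg1 left out) in 8 comparisons (columns: the ATM and ATMIN pairs in DMSO and APH at 4 h and 24 h). Colour runs over equal ranges on either side of 0 and dots mark an adjusted p under 0.05; Pmvk and Abca1 are higher in the ATM knock-out line and lower in the ATMIN knock-out line than in their wild types, and Sqle and Insig2 the reverse.

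The DMSO controls themselves changed between 4 h and 24 h. In wtATM 11 members were higher and 13 lower at 24 h (46.4% of all tested genes called, 23.1% higher and 23.3% lower). The ATM knock-out line had 16 and 8 (48.7%, 24.6% and 24.1%), wtATMIN 3 and 28 (55.5%, 29.1% and 26.3%), and the ATMIN knock-out line 2 and 27 (47.2%, 23.4% and 23.8%). Of the 18 sterol synthesis genes, 7 rose and 6 fell in wtATM, 10 rose and 2 fell in the ATM knock-out line, and 0 rose and 16 fell in each of wtATMIN and the ATMIN knock-out line. Their medians were 0.12, 0.23, −0.75 and −0.65 on the log2 scale, against 0.00, 0.00, 0.03 and 0.00 for all tested genes. Scaling by totals alone moved the median of all genes to 0.16 in wtATMIN and 0.12 in ATMIN knock-out cells, and the split in wtATM to 13 higher and 8 lower.

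Mvd in DMSO went from 111 and 129 CPM at 4 h to 28.9 and 25.9 CPM at 24 h in wtATMIN, a change of −2.12, and from 52.4 and 56.9 to 37.6 and 39.3 CPM in wtATM, a change of −0.51. Msmo1, the methylsterol monooxygenase, chosen after its values were seen, went from 180 and 173 to 87.0 and 84.2 CPM in wtATMIN (−1.04) and from 82.1 and 91.1 to 127 and 129 CPM in wtATM (0.56). Between these lines the time change was therefore of opposite sign for Msmo1. Insig1 changed by −0.53, 0.00, −1.16 and −1.03 in the 4 lines, the second of these not called. The difference between the wild-type lines in this time change, computed after the values were seen, was called for 26 members (2 higher and 24 lower in wtATMIN; 22.6% of all tested genes, 11.3% in each direction), among them 17 of the 18 sterol synthesis genes, all lower. The 5 with the smallest p were Msmo1 (−1.60 ± 0.11), Mvd (−1.61 ± 0.14), Nsdhl, a sterol dehydrogenase (−1.32 ± 0.12), Hmgcs1 (−1.01 ± 0.10) and Scd2 (−0.84 ± 0.09), with edgeR adjusted p at most 3.87e-09. The level of Gm42418 separated all 4 h from all 24 h libraries in every line, so time in culture and the making of the libraries cannot be told apart.

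**Figure D5:**
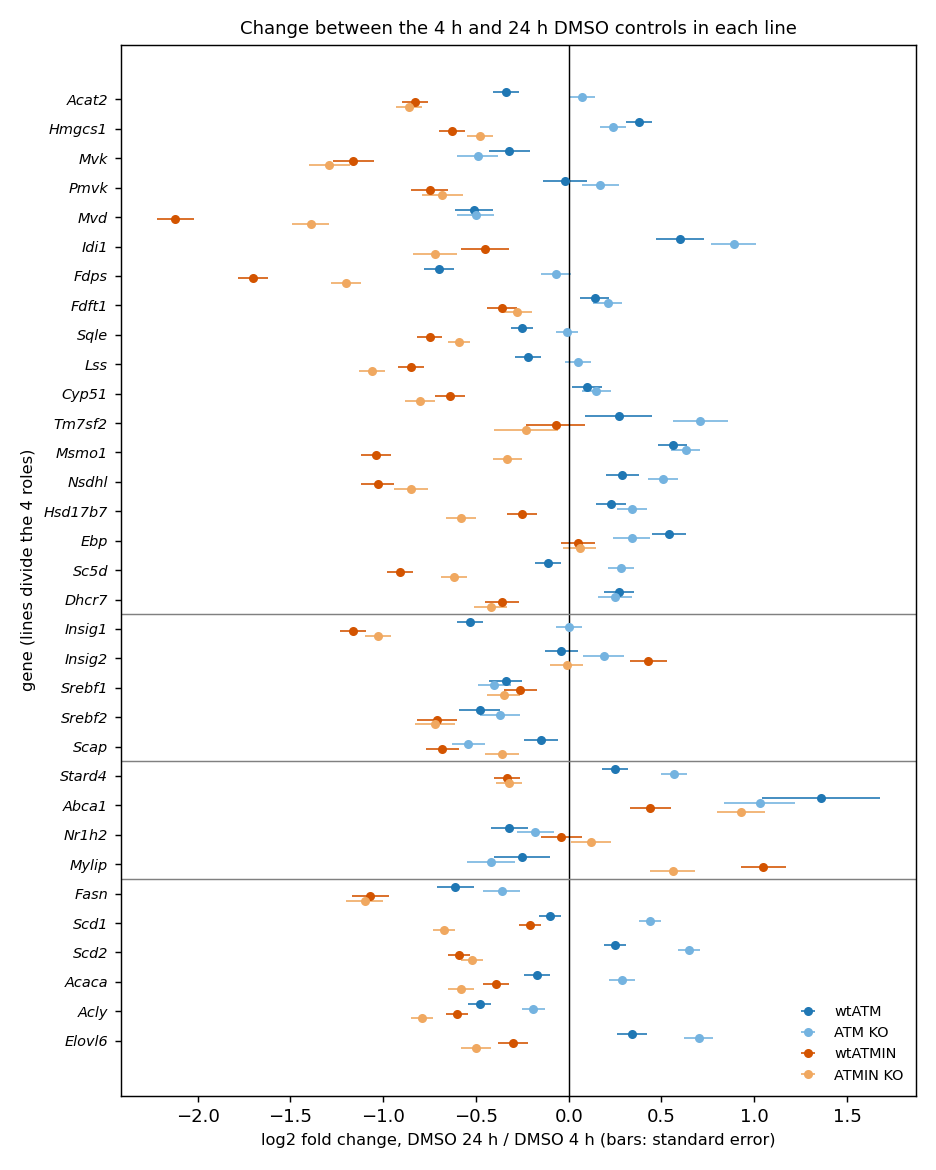
Log2 fold change, 24 h over 4 h in DMSO, of 33 members (Abcg1 left out) in the 4 lines, with bars of 1 SE. Points of wtATMIN and the ATMIN knock-out line lie mostly below 0, down to −2.12 for Mvd, while the points of wtATM and its knock-out counterpart lie on both sides.

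In DMSO the 2 wild-type lines also differed in level. At 4 h 19 members were higher and 10 lower in wtATMIN than in wtATM (57.2% of all tested genes called, 28.8% higher and 28.4% lower), and at 24 h 7 were higher and 21 lower (61.7%, 31.5% and 30.2%). Of the 18 sterol synthesis genes, 11 were higher and 6 lower at 4 h, and 1 higher and 14 lower at 24 h. Abca1 was higher in wtATMIN at both times, by 5.05 ± 0.21 and 4.13 ± 0.16, and Sqle lower, by −1.22 ± 0.07 and −1.72 ± 0.07 on the log2 scale. Scaling by totals alone moved the median of all genes at 24 h from 0.00 to 0.12.

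Over the 4 lines the order of Abca1 was wtATM (mean 2.86 CPM), ATM knock-out (7.77), ATMIN knock-out (19) and wtATMIN (37.6). The 8 samples of each line ranged from 0.972 to 7.29, 3.73 to 14.1, 8.76 to 29.1 and 25.6 to 51.3 CPM, so that neighbours in that order overlapped while lines further apart did not.

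The 44 other genes of the pathway were listed by function and not by how they moved: other SREBP lipid targets, SREBP processing, isoprenoid branches, electron donors of the sterol enzymes, and sterol transport, storage and LXR genes. Earlier results of these data were known when these lists were drawn up. At 4 h 2, 3, 3 and 5 of the 44 rose and 10, 17, 11 and 9 fell with APH in wtATM, the ATM knock-out line, wtATMIN and the ATMIN knock-out line. Of all tested genes 2.82%, 14%, 7.25% and 9.48% rose and 2.76%, 15.4%, 7.75% and 10.9% fell at that time. At 24 h 4, 8, 4 and 2 rose and 9, 12, 12 and 12 fell, against 14.4%, 15.7%, 13.6% and 14.3% of all tested genes higher and 14.3%, 12.2%, 15.3% and 15.8% lower. Their medians were −0.06, −0.17, −0.06 and −0.03 at 4 h and −0.08, −0.08, −0.09 and −0.08 at 24 h, nearer to 0 than those of the 34. Of the 13 other SREBP lipid targets, 7, 8, 7 and 5 fell at 4 h. Of the 7 genes of the isoprenoid branches, 0, 1, 0 and 0 fell and 0, 1, 0 and 2 rose at 4 h. Of the 13 genes of sterol transport, storage and LXR, 2, 1, 1 and 0 rose and 1, 4, 4 and 3 fell at 4 h. At 24 h 2, 5, 3 and 0 rose and 1, 0, 2 and 2 fell. Their medians in the same order of lines were 0.00, −0.20, −0.18 and −0.06 at 4 h and 0.09, 0.23, 0.02 and 0.01 at 24 h.

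The authors' deposited tables cover APH against DMSO in wtATMIN and the knock-out comparisons. At an adjusted p under 0.05 the authors' deposited table for wtATMIN at 4 h holds 0 members higher and 21 lower, and that at 24 h holds 2 higher and 16 lower. The fit used here also called 2 members higher at 24 h, but not the same pair. In the authors' deposited table these were Abcg1 and the fatty acid gene Acly (0.16), and in the fit used here Abcg1 and Hsd17b7. The authors' value for Hsd17b7 was 0.21 and missed the threshold. The counts differed most for the ATM pair in APH at 4 h, which includes the group that stood apart. There the authors' deposited table holds 12 higher and 6 lower, against 15 and 11 in the fit used here. No member was called in opposite directions by the authors' deposited tables and the fit used here, in any of the 10 tables.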

How the data were processed

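The deposited table holds raw read counts per Ensembl gene for the 32 samples. The authors aligned reads with TopHat2 2.0.13 and Bowtie2 2.4.0 to mm10 and used DESeq2 1.6.3, per the submitters' processing notes; the counting tool and its strand setting are not given in the sources used here. The 10 comparison tables deposited by the authors give log2 fold changes and adjusted p-values, per the file headers, and are quoted only where named. Their columns of single-sample values, 120 in number, were not used. Column names with AT and UT were read as APH and DMSO. Library totals lie between 9321329 and 21020662 reads, and 2 samples per group limit the precision.

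The members, lists and comparisons were chosen with earlier results of these data known. Genes were filtered by group (filterByExpr, 18484 of 39017 kept), scaled by TMM and fitted with edgeR 4.0.16 (R 4.3.3) as 1 model of 16 groups over all 32 samples with robust quasi-likelihood dispersions, giving 30 comparisons, each adjusted over all genes tested. Another 3 comparisons, between the wild-type lines' responses and time changes, were added after the data were seen. Values are shown per sample for the 3 members of each role with the largest mean log2 change over the 8 APH comparisons. The 3 members per knock-out with the largest mean difference called alike in all 4 comparisons are also shown with their levels. These are per sample except for Pmvk and Ebp, which are given as ranges and medians over the samples of each line. Of differences between responses at most 5 called members are named by smallest p. All other genes given with values, such as Hmgcs1, Acat2, Mylip, Acaca, Fasn, Msmo1, Hsd17b7, Scap and Srebf1, and the examples from the comparisons of lines and of times in DMSO, were chosen after their values were seen.

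Alternatives were edgeR's relative log expression (RLE) factors, library totals alone, no filter and the test of DESeq2 1.42.0. Further ones were a replicate block, the compared groups only, and leaving out each library. On counts simulated for APH against DMSO in wtATM at 4 h (17485 genes), 100% of changes of 1 log2 unit and 80% of decreases and 72% of increases of 0.5 were recovered. These changes were put only into genes above a minimum level, in counts where the groups otherwise shared their means. Same-numbered replicates deviated from their groups with correlations from −0.194 to 0.181 over 13199 genes, so numbers were not taken to pair samples.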

Additional observations from a re-analysis of the deposited data

Results flagged for a closer look

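The APH response, a log2 change with its SE, differed between groups by edgeR's quasi-likelihood test of the difference itself (adjusted p under 0.05) for the members below, and no explanation of any difference was tested.

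Between the ATM knock-out line and wtATM at 4 h these were Elovl6 (0.59), Mvd (−0.70), Mvk (−0.69), Scap (−0.51) and Acly (−0.35), and at 24 h Scap (−0.55), Hmgcs1 (0.38) and Acaca (0.39). Between the ATMIN knock-out line and wtATMIN it was Sqle at 4 h (0.41), and Lss (−0.50), Sqle (−0.36) and Mvd (−0.55) at 24 h.

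Between 24 h and 4 h the response in wtATM differed for Insig1 (0.81), Mylip (1.56), Acaca (−0.65), Hsd17b7 (0.67) and Acat2 (0.58). In the ATM knock-out line it differed for Mvd (1.21), Lss (0.70), Insig1 (0.69), Acat2 (0.68) and Mylip (1.21). In wtATMIN it differed for Acat2 (0.55), Acaca (−0.52), Mvd (0.63), Mylip (0.71) and Insig2 (0.55), of which Mylip was 0.57 and not called without replicate 1 of the 4 h APH samples, and Insig2 0.46 and 0.40, not called, without replicate 1 of the 24 h DMSO or APH samples. In the ATMIN knock-out line it differed for Sqle (−0.68), Cyp51 (−0.72), Fdps (−0.50), Acat2 (0.41) and Hsd17b7 (−0.46).

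Between wtATMIN and wtATM the response differed at 4 h for Acaca (0.43), and at 24 h for Insig1 (−0.76), Mylip (−1.13), Abca1 (−1.46), Acaca (0.55) and Acly (0.48). The change of the DMSO samples from 4 h to 24 h differed between the same lines for Msmo1 (−1.60), Mvd (−1.61), Nsdhl (−1.32), Hmgcs1 (−1.01) and Scd2 (−0.84).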

How the results depend on the processing

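No called member changed direction under any alternative. Of 632 calls, 628 were kept with RLE factors, 574 with library totals alone, 609 with no filter and 625 with the replicate block. With only the compared groups fitted 583 of 630 were kept, and with the DESeq2 test 613 of 631. Leaving out 1 library kept 2508 of 2944. The replicate block changed 7 member calls and moved no count by over 1.5 times; since same-numbered samples did not deviate together, it has no reading as a pairing.

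With only the compared groups fitted, 16 rather than 25 members were called for APH in the ATM knock-out line at 4 h, and 8 rather than 5 sterol synthesis genes fell there at 24 h. In that fit the responses of the ATM pair differed in 0 members at 4 h (12 in the fit reported) and 6 at 24 h (3), those of the ATMIN pair in 8 at 24 h (3), those of the 2 wild types in 3 at 4 h (1), and those of 24 h and 4 h in 10 for the ATM knock-out (22) and 16 for the ATMIN knock-out line (9). With library totals alone the ATMIN pair's responses differed in 0 members at 4 h (1) and 1 at 24 h (3), the wild types' at 4 h in 0 (1), and wtATMIN's between times in 12 (7). The wild types' responses at 4 h differed in 3 members with no filter and 2 with DESeq2. The cause of these shifts was not tested.

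With 1 library left out at a time, and the lines given as wtATM, its ATM knock-out counterpart, wtATMIN and its counterpart, the members called for APH numbered 16 to 23, 21 to 25, 16 to 22 and 15 to 17 at 4 h and 19 to 22, 9 to 11, 13 to 14 and 21 to 22 at 24 h, and the sterol synthesis genes that fell 10 to 15, 12 to 14, 11 to 14 and 9 to 10 and 9 to 10, 3 to 4, 6 to 7 and 13 to 13. The ATM pair gave 22 to 26, 22 to 26, 25 to 26 and 28 to 30 in DMSO and APH at 4 h and then at 24 h, and the ATMIN pair 20 to 23, 22 to 25, 16 to 18 and 16 to 19. Response differences ranged over 1 to 15 and 0 to 3 for ATM, 0 to 1 and 0 to 1 for ATMIN, 0 to 1 and 8 to 10 for the wild types, and 6 to 11, 13 to 25, 5 to 10 and 6 to 9 between times. The DMSO time changes gave 17 to 20, 19 to 22, 29 to 29 and 28 to 29, their difference between wild types 24 to 26, and the wild-type lines in DMSO 24 to 28 and 24 to 26.

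Abcg1 had 3 reads in wtATM and 1 in the ATM knock-out line, and no change in it was detectable there at this depth. With 2 samples per group, 80% of simulated decreases and 72% of increases of 0.5 log2 units were recovered.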
